A study of Homo sapiens with 40 samples.

Results

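The replication-dependent histone genes were taken as every gene name of the human HIST1 to HIST4 clusters that names an H1, H2A, H2B, H3 or H4 gene, with the names marked as pseudogenes by the letters PS left out. This rule, which uses no measured value, found 75 of the 56568 gene names in the expression tables: 6 of H1, 17 of H2A, 22 of H2B, 15 of H3 and 15 of H4. Of these, 55 lie on chromosome 6, 19 on chromosome 1 and 1 on chromosome 12. By present annotation 5 of the 75 do not code for a protein: HIST2H2BA is a long non-coding RNA gene, and HIST2H2BB, HIST2H2BC, HIST2H3DP1 and HIST3H2BA are pseudogenes. They were kept, since the rule names them.

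RNA sequencing of total RNA, depleted of ribosomal RNA and made into strand-specific libraries, was measured in differentiated HepaRG cells (HPR 116), an established human hepatic line whose cultures hold hepatocyte-like and biliary-like cells. From day 8 to day 14 all cultures, controls included, stood in medium with 2% FBS and 1% DMSO. There were 8 groups of 5 libraries. One was the solvent control. PCB 126, a dioxin-like polychlorinated biphenyl, was given at 1 µM, 10 nM or 100 pM. The herbicide ingredient glyphosate was given at 0.1 g/L, at 1 mg/L or at 10 µg/L, and a formulated herbicide, Roundup (Grand Travaux +), at 10 µg/L only. The same 5 control libraries served every comparison, so the comparisons with control are not independent of each other. Levels are FPKM (fragments per length of transcript, relative to all mapped fragments in that library) summed per gene name. The labels give no replicate numbers, and the numbers used here were assigned in order. Libraries with the same number fall in the same run of library numbers, and the labels do not say what a run is.

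Histones package DNA: H2A, H2B, H3 and H4 form the core of the nucleosome, and H1 binds the linker DNA between nucleosomes. The replication-dependent genes are transcribed mainly in S phase, when new DNA needs histones. Their mRNAs as a rule end not in a poly(A) tail but in a conserved stem-loop, which the stem-loop binding protein SLBP recognises, so libraries made from poly(A) RNA largely miss them while libraries of total RNA hold them. Some members also give spliced, polyadenylated transcripts.

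The stem-loop is shown because it is the feature that the members share and that the rule did not use. It was searched by a pattern of 16 letters with 3 of them free, on the coding strand, within 150 bases after the stop codon of 70 members annotated as protein coding. It stood there in 66 of them, 22 to 67 bases after the stop codon, and in 68 of 20046 protein-coding genes in all (0.339%). The other 2 genes with it were H2AX and H3-7. The stretches below (GRCh38, 5′ to 3′ on the strand of the gene) have the stem-loop in capitals and belong to the most abundant members of their classes and to members described below.
HIST1H1C, chr6:26055739-26055764, minus strand: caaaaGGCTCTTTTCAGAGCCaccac
HIST1H2AG, chr6:27133510-27133535, plus strand: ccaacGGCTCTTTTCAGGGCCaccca
HIST1H2AH, chr6:27147541-27147566, plus strand: acaaaGGCTCTTTTCAGAGCCattct
HIST1H2BC, chr6:26123467-26123492, minus strand: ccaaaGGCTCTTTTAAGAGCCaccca
HIST1H3C, chr6:26045844-26045869, plus strand: gaaaaGGCTCTTTTCAGAGCCactca
HIST1H4J, chr6:27824454-27824479, plus strand: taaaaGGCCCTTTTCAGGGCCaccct
HIST1H4K, chr6:27831173-27831198, minus strand: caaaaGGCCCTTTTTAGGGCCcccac
The form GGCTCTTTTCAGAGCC stood in 40 members and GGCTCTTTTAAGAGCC in 10. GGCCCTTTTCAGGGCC was found in 10 members and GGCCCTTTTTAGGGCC in 4, and the form of HIST1H2AG in that gene alone.

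The promoters are shown for 3 of the highest members, of classes H1, H2B and H4, because the classes differ in the short motifs they carry. RefSeq (GRCh38.p14) gave a promoter of 250 bases before to 50 after the start for 65 members, against 35116 promoters in all, and both strands were searched. Each stretch is the 150 bases before the start, with the motifs described after them in capitals where they occur on the printed strand.
HIST1H1C, chr6:26056471-26056620, minus strand: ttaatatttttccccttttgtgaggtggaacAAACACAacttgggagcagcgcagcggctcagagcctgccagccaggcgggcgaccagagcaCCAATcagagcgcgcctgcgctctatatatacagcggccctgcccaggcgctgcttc
HIST1H2BC, chr6:26123927-26124076, minus strand: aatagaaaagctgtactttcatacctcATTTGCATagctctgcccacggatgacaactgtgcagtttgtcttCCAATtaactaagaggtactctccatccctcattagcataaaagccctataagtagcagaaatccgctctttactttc
HIST1H4K, chr6:27831561-27831710, minus strand: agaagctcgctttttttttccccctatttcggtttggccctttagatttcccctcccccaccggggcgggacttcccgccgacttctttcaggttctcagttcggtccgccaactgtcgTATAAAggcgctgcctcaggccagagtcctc
The TATA motif TATAAA stood in 44 of the 65 (67.7%) and in 11.5% of all promoters. CCAAT stood in 55 (84.6%, against 34.6% of all promoters), that is, in every H1, H2A, H2B and H3 promoter matched and in 3 of 13 of H4. The octamer ATTTGCAT was found in 11 of 16 H2A and 14 of 18 H2B promoters and in no matched H1, H3 or H4 promoter, beside 1.77% of all promoters. AAACACA stood in all 6 H1 promoters and 9 of the 65, beside 5.64% of all promoters. Matches of different motifs may overlap, and a match is a match of letters only. Where H2A and H2B genes start close together on opposite strands, as HIST1H2AC and HIST1H2BC do, their promoter windows overlap. One match can then count for both genes, so the H2A and H2B counts are not independent.

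In solvent control cells the linker histone gene HIST1H1C had the highest level. Its 5 libraries gave 255, 205, 164, 171 and 94.6 FPKM, a mean of 178 ± 59 (SD, n = 5), and it held 7.88% of the summed FPKM of the members. The H4 gene HIST1H4K followed with 115 ± 35.3, the H3 gene HIST1H3B with 113 ± 48.2, the H2A gene HIST2H2AA3 with 102 ± 29.5 and the H4 gene HIST1H4J with 102 ± 30.8 (SD, n = 5 each). HIST1H1E (H1) stood at 98.9 ± 30.9, HIST1H2BC (H2B) at 90.4 ± 24.6, HIST2H2AC (H2A) at 88.5 ± 28 and HIST2H2AA4 (H2A) at 84.7 ± 54.7. Each of these overlapped its neighbour in the order, so that ranks next to each other cannot be separated at this spread. The level is per length of the annotated transcript, which for many members is the coding length only.

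Most of the remaining members were far lower. Over all 40 libraries 17 members had a mean of at least 50 FPKM, 21 of 10 to under 50, 17 of 1 to under 10 and 20 of under 1. HIST1H3G, HIST1H4G and HIST3H2A were listed at 0 in all 40. The low members were clustered in part: the 7 members between positions 26234268 and 26273356 of chromosome 6, among them HIST1H1D and HIST1H3F, never passed 0.302 FPKM. HIST1H1T, the testis linker histone gene, stood at 0.82 ± 0.511 FPKM in control (SD, n = 5).

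**Figure D1:**
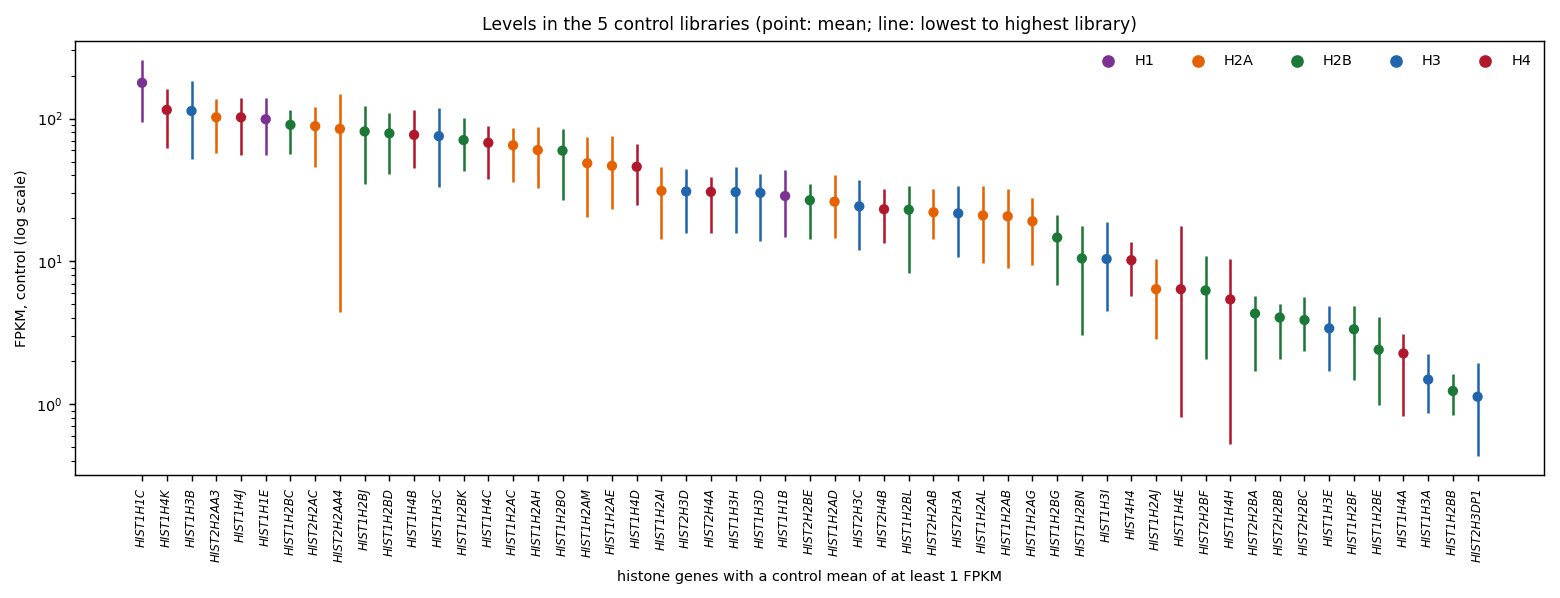
Mean level of the members in the 5 solvent control libraries, in FPKM on a log axis, by histone class, with the lowest and highest library. HIST1H1C is highest at 178 FPKM, and neighbours in the order overlap.

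The H2A and H2B genes form 12 head-to-head pairs whose starts lie 219 to 331 bases apart, and the levels within a pair ran from nearly equal to far apart. In HIST1H2BC and HIST1H2AC the control means were 90.4 and 65.0 FPKM, and in HIST1H2BK and HIST1H2AH 70.7 and 60.2. HIST1H2BJ and HIST1H2AG stood at 81.3 and 19.1. The pair HIST1H2AJ and HIST1H2BM was the most unequal with values above 0, at 6.4 and 0.0597 FPKM.

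Some members could not be told apart from near-identical copies, since the study's read counting could split reads between them. All 75-base stretches of the single-exon transcripts of HIST2H2AA3 and HIST1H4K, and of HIST2H3A and HIST2H3C, also occur in another member. HIST2H2AA4 shares 96.9% of its stretches with HIST2H2AA3, and HIST1H4J shares 79.6% with HIST1H4K. HIST2H2AA4 gave 148, 4.43, 112, 97.1 and 61.1 FPKM in the control libraries, with replicate 2 far below the rest. Libraries near 0 also stood in other groups, at 3.81 and 5.44 FPKM with PCB 126 at 10 nM, at 4.62 and 6.41 with glyphosate at 10 µg/L, at 3.29 with 1 mg/L and at 2.46 with 0.1 g/L, so levels of these members singly are uncertain.

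The members as a whole varied widely between libraries of one group. Their summed FPKM was 3227, 2584, 2217, 2041 and 1222 in control replicates 1 to 5, a mean of 2258 ± 736 (SD, n = 5). Control replicate 1 was highest of its group in 43 of the 50 members that passed the filter of the test, and control replicate 5 was lowest in 43. The sum of all named genes was also lowest in control replicate 5, at 229493 FPKM against 350643 to 409905 in the other 4 controls. It was among 9 of the 40 libraries in which over 30% of read pairs aligned more than once, and the part of this in the levels was not tested.

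PCB 126 was compared with control to ask which genes respond at each concentration. At 100 pM the summed FPKM of the members was 2417, 2896, 2490, 2500 and 1487 (mean 2358 ± 522). At 10 nM the libraries gave 2074, 1636, 1004, 1911 and 1148 (1555 ± 467), and at 1 µM 1166, 1418, 1377, 1523 and 1122 (1321 ± 171, SD, n = 5 each). The mean at 1 µM was 0.585 of the control mean, a difference of -0.71 on the log2 scale, and control replicate 5 lay within the range of the 1 µM libraries. Less RNA per cell and fewer cells of a type cannot be told apart in bulk samples. Without the 9 libraries with over 30% multiple alignment the sums were 2041 to 3227 in control (n = 4), 1636 to 2074 at 10 nM (n = 3) and 1377 to 1523 at 1 µM (n = 3).

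**Figure D2:**
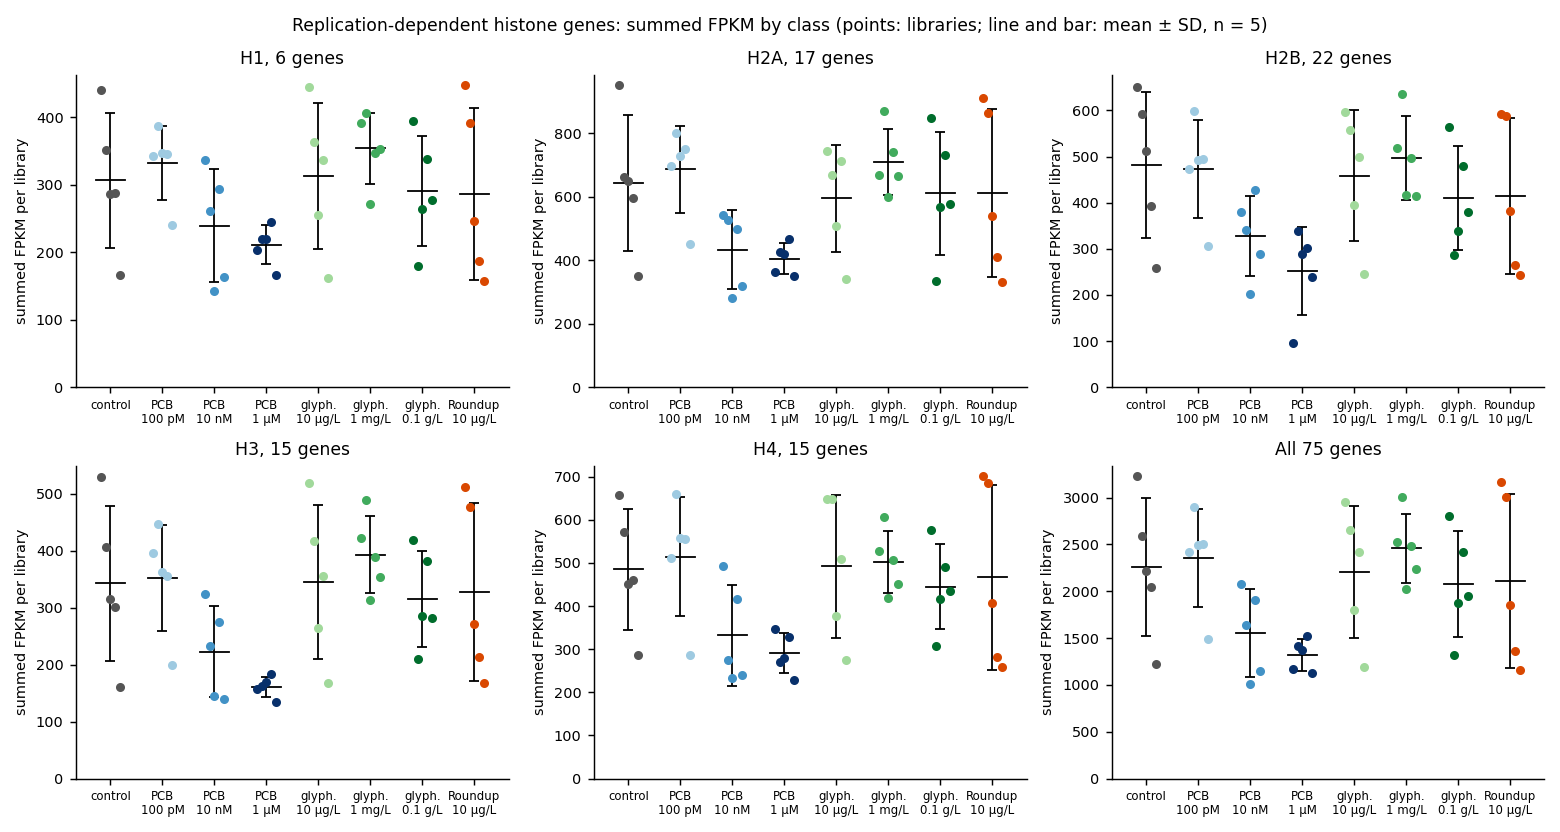
Summed FPKM of the members of each histone class in every library of the 8 groups, with the group mean and SD. At 1 µM PCB 126 the mean is below the control mean in all 5 classes, and the ranges of the groups overlap.

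Every class had a lower mean sum at 1 µM than in control. H3 stood at 161 ± 17.6 against 342 ± 136 FPKM, a difference of -0.99 on the log2 scale, and H2B at 253 ± 95.0 against 481 ± 158 (-0.98). H4 stood at 291 ± 47.1 against 485 ± 140 (-0.70), H2A at 405 ± 47.7 against 642 ± 214 (-0.60) and H1 at 211 ± 28.7 against 307 ± 100 (-0.48; SD, n = 5 each). Each class overlapped control. In H2B the library of 1 µM replicate 1 stood apart at 95.2 FPKM. Since the sums run over members chosen with earlier results known, no test was applied to them.

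As a share of the FPKM of all named genes in a library, which removes differences in library sum, the members separated at 1 µM. The share was 0.787, 0.631, 0.622, 0.582 and 0.532% in control and 0.461, 0.39, 0.366, 0.413 and 0.458% at 1 µM. All 5 libraries at 1 µM were below every control library, with means of 0.418 and 0.631%. At 10 nM the share ran from 0.477 to 0.622%, at 100 pM from 0.475 to 0.75%, and in the herbicide groups from 0.528 to 0.756%, and each of these overlapped control. This share was computed after the library sums had been seen to differ.

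**Figure D3:**
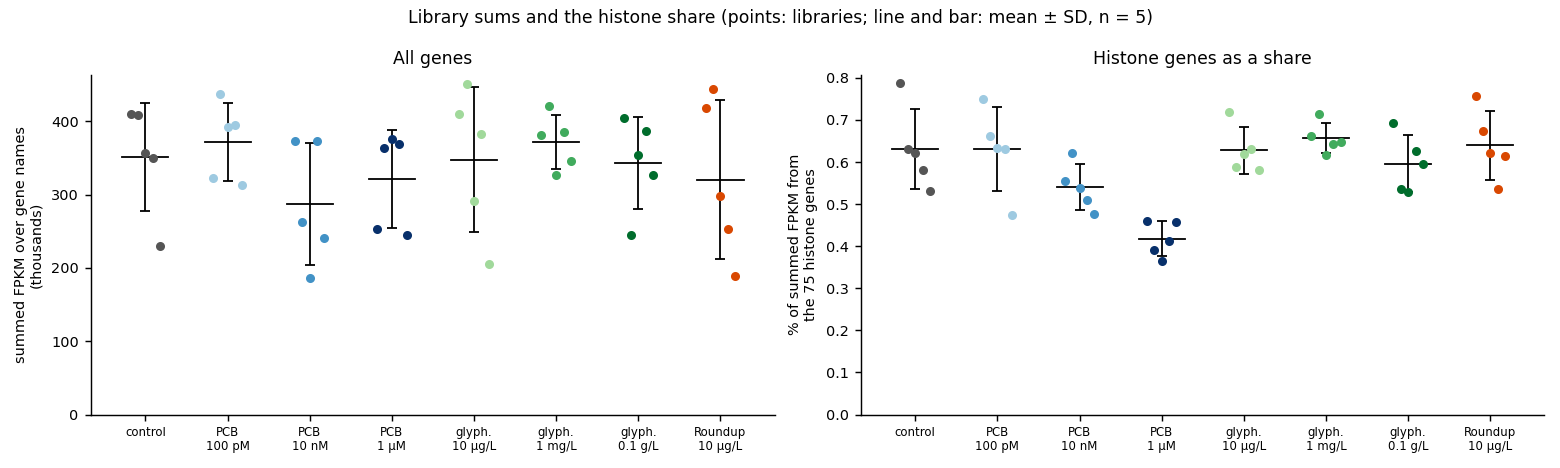
Share of the summed FPKM of all named genes that the members hold, in percent, in each library of the 8 groups, with group means. The 5 libraries at 1 µM PCB 126 lie between 0.366 and 0.461%, below the lowest control library at 0.532%.

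The classes held different shares of the member sum at 1 µM. H1 held 13.6% of it in control (12.97 to 14.13%), 15.2% at 10 nM (14.15 to 16.21%) and 16% at 1 µM (14.89 to 17.46%), with no overlap between control and either. In the other groups the H1 share overlapped control, though single libraries reached 16.14% at 100 pM and 15.75% with glyphosate at 1 mg/L. H2A held 28.5% in control and 30.7% at 1 µM (25.61 to 29.49 and 30.06 to 31.29%), without overlap. Its share ran from 26.13 to 32.16% at 10 nM and reached 30.4% with Roundup, and both overlapped control. H3 held 14.8% and 12.3% in control and at 1 µM (13.2 to 16.4 and 11.46 to 13.5%), and overlapped. H2B held 21.3% and 18.8% (19.28 to 23.13 and 8.162 to 23.89%), and H4 21.8% and 22.2% (20.35 to 23.43 and 19.09 to 29.8%). Both overlapped, and 1 µM replicate 1 was the lowest in H2B and the highest in H4.

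Gene by gene, limma on log2(FPKM + 1) called 1 of the 50 members that passed the filter at 1 µM, where it called 1.22% of the 9755 genes tested as lower. The other 25 members were too low or too even to be tested. The called member was HIST1H3C, an H3 gene at 26045411 to 26045821 of chromosome 6. Its level was 119, 90.2, 71.4, 62.7 and 33.1 FPKM in control and 18.6, 35.7, 35.3, 31.5 and 26.9 at 1 µM. Control replicate 5 lay among the 1 µM libraries and the other 4 controls lay above them all. HIST1H3C fell by 1.24 on the log2(FPKM + 1) scale (SE 0.33), with an adjusted p of 0.0456 from limma and an exact 2-sided permutation p of 0.0238. At 100 pM its libraries gave 82.6, 102, 80.5, 62.3 and 43.6 FPKM and at 10 nM 74.3, 50.8, 31.0, 59.1 and 29.0, both overlapping control.

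The call of HIST1H3C rested on single libraries. Leaving out control replicate 5 gave an adjusted p of 0.00823 and 28 members called in place of 1. The share of all genes called without that library is not given. Leaving out any one of the other control libraries or any 1 µM library took the adjusted p of HIST1H3C to between 0.0521 and 0.165 and left 0 members called, apart from 1 member, HIST1H2BD, called without 1 µM replicate 2 (adjusted p 0.0369, limma). The adjusted p of HIST1H3C was 0.0858 without control replicate 4, 0.0996 without control replicate 3, 0.141 without control replicate 2 and 0.165 without control replicate 1. It was 0.129, 0.0521, 0.0547, 0.0651 and 0.1 without 1 µM replicates 1 to 5 in turn (limma, Benjamini-Hochberg).

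Below the threshold on adjusted p the members leaned one way. At 1 µM 35 of the 50 had an unadjusted p under 0.05 in the direction lower and 0 in the direction higher (limma), while 11.3% of all genes tested were so placed on the lower side and 2.27% on the higher. Of the 50, 46 had a log2 difference below 0, as had 79.2% of all genes tested. The median log2 difference was -0.85 for the members and -0.26 for all genes tested. All 8 H3 members tested had an unadjusted p under 0.05, and 2 of 3 in H1, 10 of 14 in H2A, 9 of 14 in H2B and 6 of 11 in H4. Without any filter 68 members were tested, with a median of -0.72, and 57 were below 0. The median of all 43478 genes then tested was -0.03, and their share below 0 is not given. Over all genes 119 were called lower and 63 higher, and with quantile normalization between libraries 553 and 532.

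**Figure D4:**
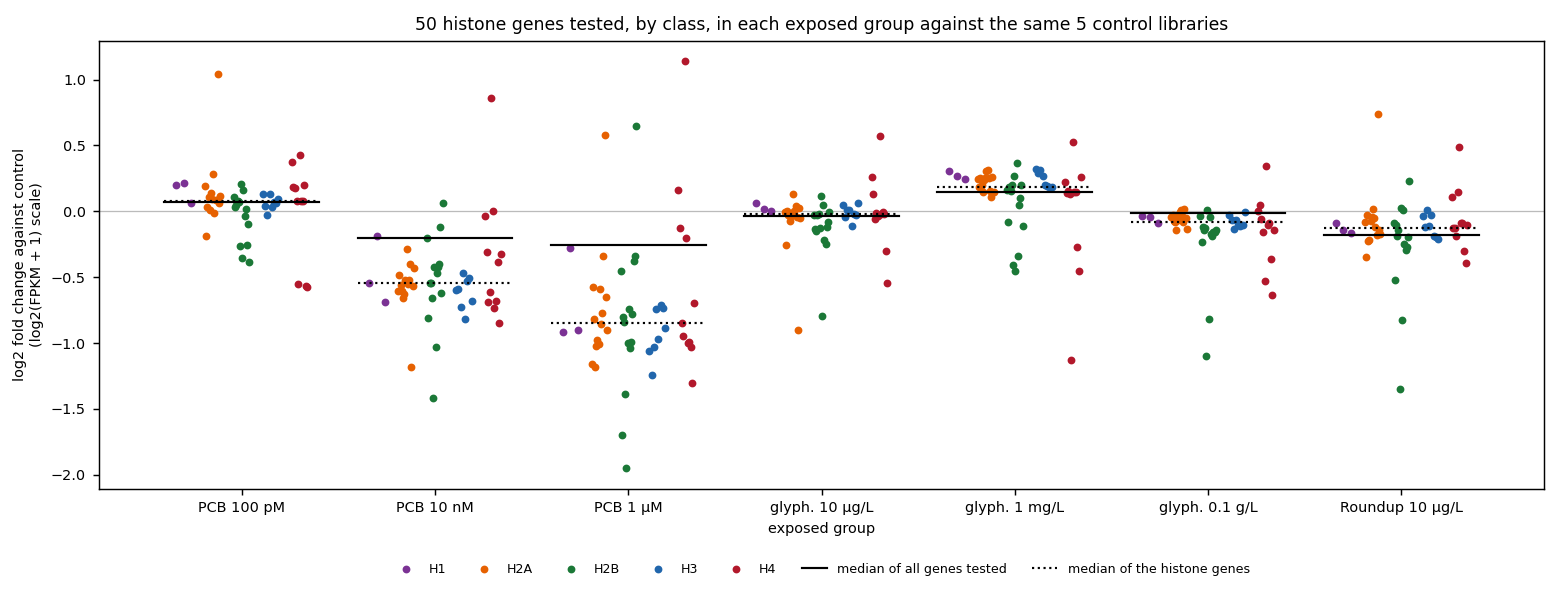
Log2 difference of the tested members from control on the log2(FPKM + 1) scale, by histone class, for each exposure, beside the median of all genes tested. At 1 µM PCB 126, 46 of 50 members lie below 0 with a median of -0.85, against -0.26 for all genes tested.

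After each library was scaled to its summed FPKM, an alternative added after the data had been seen, 28 of the 50 members were called lower at 1 µM, beside 6.43% of all genes tested. In 24 members the 5 libraries at 1 µM lay below all 5 controls, beside 8.17% of all genes. On that scale the median was -0.73 for the members and -0.15 for all genes. The median of all genes at 1 µM was -0.12 with scaling to the 75th percentile and -0.01 with quantile normalization, where the member medians were -0.70 and -0.66, so the members stood below the median of all genes on each of these scales. The 75th-percentile scaling called 20 members and quantile normalization 23, all lower, beside 3.54% and 5.67% of all genes tested called lower.

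The H2A genes HIST1H2AB, HIST1H2AE and HIST1H2AG and the H2B gene HIST1H2BO were named by the study on these same libraries, so their direction is not independent evidence. HIST1H2AG gave 27.7, 21.9, 19.4, 16.8 and 9.5 FPKM in control and 6.9, 9.54, 9.49, 8.46 and 7.78 at 1 µM. Control replicate 5 lay just below the highest 1 µM library, and the other controls lay above. The log2 difference was -1.02 (SE 0.27), with an adjusted p of 0.0506 from limma and an exact permutation p of 0.0159. HIST1H2AE stood at 75.5, 52.3, 43.4, 39.1 and 23.2 FPKM in control and 10.4, 23.3, 24.2, 21.2 and 18 at 1 µM, again with control replicate 5 among the exposed libraries (-1.18, SE 0.33, limma adjusted p 0.0661). For HIST1H2AB the means were 20.7 and 8.32 FPKM (-1.16, limma adjusted p 0.0537), and for HIST1H2BO 59.6 and 27.6 (-1.04, limma adjusted p 0.0886).

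In 2 members the libraries at 1 µM lay below all controls without any scaling, beside 1.64% of all genes tested. These were the head-to-head neighbours HIST1H2AH and HIST1H2BK, and HIST1H2AH was singled out after its values were seen. HIST1H2AH gave 87.3, 76.1, 57.5, 47.7 and 32.5 FPKM in control and 21.4, 31.5, 31.1, 29.7 and 29.6 at 1 µM. Its log2 difference was -0.98 (SE 0.29), the limma adjusted p 0.0891 and the exact permutation p 0.00794, the smallest that 5 against 5 libraries allow. Any gene whose 2 groups do not overlap gets this permutation p. For HIST1H2AH and HIST1H2BK it therefore only repeats the lack of overlap by which they were picked. HIST1H2BK, an H2B gene, gave 86.2, 73.1, 101, 49.9 and 43.3 FPKM in control and 24.1, 26.8, 2.42, 35.1 and 19.2 at 1 µM (-1.95, SE 0.69, limma adjusted p 0.183, exact permutation p 0.00794). Replicate 3 at 1 µM was nearly empty, as were single libraries of other groups: 0.979 FPKM at 10 nM, 2.86 with glyphosate at 0.1 g/L and 2.22 with Roundup.

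Part of the RNA of the HIST1H2BK locus stood under other transcripts. The study's assembly gave 2 spliced transcripts without a gene name over it on the same strand, with a mean of 33.4 ± 9.59 FPKM in control and 33.5 ± 12.4 at 1 µM. In the near-empty 1 µM replicate 3 and 10 nM replicate 1 they were the highest of their groups, at 47.7 and 56.1 FPKM. The same held in Roundup replicate 2, at 56.2. In the near-empty glyphosate 0.1 g/L replicate 3 they stood at 38.6, below replicate 1 of that group at 39.7. Member and unnamed transcripts together gave 126, 115, 135, 83.2 and 60.8 FPKM in control and 41.1, 68.1, 50.1, 71.6 and 44.2 at 1 µM, and the groups then overlapped. Such unnamed transcripts lay over 21 members.

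The highest member, HIST1H1C, gave 95.9, 163, 163, 174 and 120 FPKM at 1 µM, all within the control range of 94.6 to 255 (-0.28, SE 0.28, limma adjusted p 0.647). The other linker histone genes tested stood lower in the mean. HIST1H1E had 53.0 FPKM at 1 µM against 98.9 in control, though 1 µM replicate 1 reached 90.3, and HIST1H1B had 14.0 against 28.7 (limma adjusted p 0.164 and 0.107). HIST1H1T, the fourth by level in its class, was too low for the test.

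Among the H2B genes, 1 µM replicate 1 stood apart. In HIST1H2BD it gave 2.45 FPKM against 25.5 to 52.0 in the other 1 µM libraries and 40.7 to 109 in control. In HIST1H2BJ it gave 6.46 FPKM against 32.6 to 45.7, and in HIST1H2BC 22.5 against 69.1 to 90.5. The log2 differences from control were -1.70 for HIST1H2BD (limma adjusted p 0.0801), -1.39 for HIST1H2BJ (0.0838) and -0.45 for HIST1H2BC (0.533). This library was one of those with over 30% multiple alignment, whose part in these values was not tested.

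The same library was the highest for HIST1H4B, an H4 gene. HIST1H4B gave 115, 93.0, 66.6, 64.5 and 45.0 FPKM in control and 173, 50.2, 41.3, 66.4 and 55.4 at 1 µM, with means of 76.9 and 77.2 (-0.13, SE 0.34, limma adjusted p 0.868). HIST1H4K and HIST1H4C stood lower in the mean at 1 µM. HIST1H4K gave 160, 128, 112, 110 and 62.7 FPKM in control and 40.2, 55.2, 66.7, 66.2 and 49.6 at 1 µM (-0.99, SE 0.29, limma adjusted p 0.0741), with control replicate 5 again the only control among the exposed libraries. HIST1H4C had 36.3 against 67.7 (limma adjusted p 0.17). HIST1H4E, higher in the mean at 1 µM, stood at 1.87 FPKM or less or at 8.48 or more in each of the 40 libraries, at 0.844, 1.68, 0.818, 17.6 and 11 in control and 20.1, 10.9, 12.6, 14.5 and 0.995 at 1 µM (1.14, SE 0.81, limma adjusted p 0.527).

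All 8 tested H3 genes were lower in the mean at 1 µM. HIST1H3B gave 182, 133, 102, 94.2 and 51.9 FPKM in control and 49.9, 52.7, 53.0, 51.3 and 40.9 at 1 µM (-1.06, SE 0.32, limma adjusted p 0.0984). The 1 µM libraries lay close together near the lowest control. HIST1H3H had means of 30.6 and 17.4 FPKM and HIST2H3D of 30.9 and 15.6 (limma adjusted p 0.25 and 0.151). The 8 tested H3 members had log2 differences from -1.24 to -0.71.

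On chromosome 1, the H2A genes HIST2H2AA3, HIST2H2AA4 and HIST2H2AC had log2 differences of -0.34, 0.58 and -0.90 at 1 µM (limma adjusted p 0.56, 0.712 and 0.162). HIST2H2AC gave 20.4, 54.1, 59.1, 58.2 and 46.0 FPKM against 45.5 to 121 in control. For the near-identical HIST2H2AA3 and HIST2H2AA4 together the mean was 186 ± 70.4 in control and 162 ± 26.6 at 1 µM, overlapping. Control replicate 2, near 0 in HIST2H2AA4, summed to 120 FPKM, against 286, 215, 193 and 118 in control replicates 1, 3, 4 and 5. HIST1H4J and HIST1H4K together had 216 ± 66.0 and 105 ± 21, overlapping. HIST2H4A and HIST2H4B together, named after their values were seen, had 53.9 ± 14.4 (37.1 to 69.0) and 25.2 ± 8.78 (12.6 to 36.3, SD, n = 5 each), without overlap. HIST2H2BF, also named after its values were seen, was higher in the mean, at 5.93, 5.93, 6.52, 2.07 and 10.9 FPKM in control and 1.69, 15.9, 16.7, 11.9 and 11.1 at 1 µM, with 1 µM replicate 1 below every control (0.65, limma adjusted p 0.493).

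**Figure D5:**
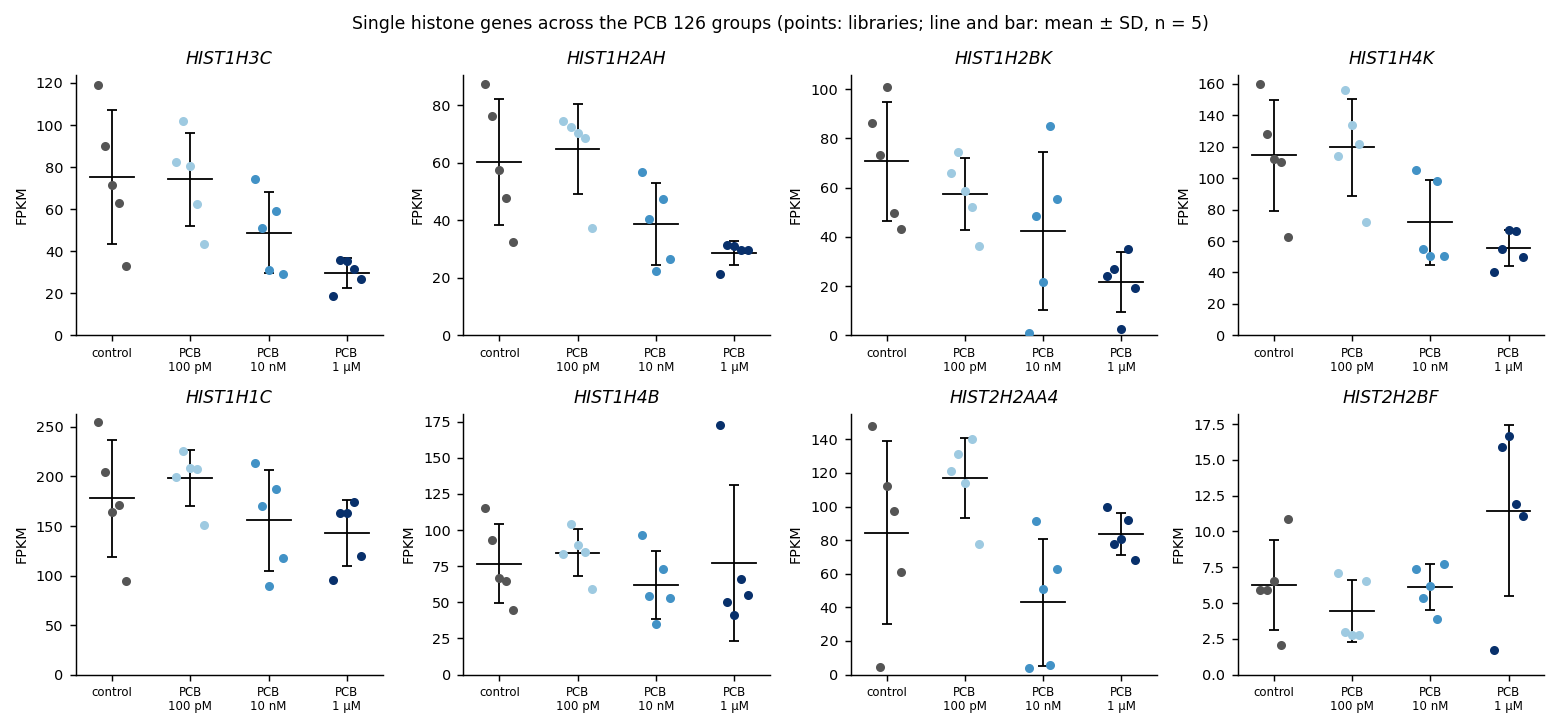
FPKM of 8 members in each library of control and the 3 PCB 126 groups, with group means. In HIST1H3C control replicate 5 (33.1 FPKM) lies among the 1 µM libraries, and in HIST1H4B 1 µM replicate 1 (173 FPKM) lies above all others.

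The tested members were also split by position and by promoter letters. The median log2 difference at 1 µM was -0.92 over 35 members on chromosome 6 and -0.72 over 14 on chromosome 1. On chromosome 6 it was -0.84 over 19 members between 25.7 and 26.3 Mb and -0.98 over 16 between 27.1 and 27.9 Mb, and each of these 16 was below 0. It was -0.90 with TATAAA in the promoter (31 members) and -0.81 without it (12), and -0.83 with ATTTGCAT (18 members) and -0.91 without it (25). No test was run on these splits.

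Single-exon transcripts held most of the member FPKM. Their sum was 2063 ± 659 in control and 1174 ± 121 at 1 µM, a log2 difference of -0.75, while transcripts of several exons held 195 ± 78.2 and 148 FPKM (-0.46), and both overlapped control. Transcripts of several exons occurred in 16 members, 9 of them with at least 1 FPKM. The spliced transcript of HIST1H2BC had 41.3 FPKM in control and 48.8 at 1 µM (exact permutation p 0.571), and that of HIST1H2BD 29.6 and 17.3 (exact permutation p 0.0635).

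At 10 nM 0 of the 50 members were called by limma, beside 20 of 9755 genes (0.205%). Unadjusted p was under 0.05 in 11 members, all lower, beside 3.75% of all genes on the lower side. The median log2 difference was -0.54 for the members and -0.21 for all genes, and 47 of 50 members were below 0, as were 83.3% of all genes. The smallest p belonged to HIST1H4J, at 140, 114, 103, 96.0 and 55.3 FPKM in control and 92.2, 48.7, 43.9, 77.4 and 43.3 at 10 nM (-0.73, SE 0.28, limma adjusted p 0.779, exact permutation p 0.0476). Control replicate 5 lay among the exposed libraries there too.

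At 100 pM limma called 0 members and 0 of all genes (0%), and 0 members had an unadjusted p under 0.05, beside 1.19% of all genes. The median was 0.08 for the members and 0.07 for all genes tested. The member with the smallest p was HIST2H2AA4, at 121, 131, 114, 140 and 77.9 FPKM (1.04, SE 0.74, limma unadjusted p 0.17), where control replicate 2 stood at 4.43 FPKM and the other 4 controls at 61.1 to 148. Across the 4 groups in 1 F-test limma called 0 members and 1.39% of all genes, with 34 members under an unadjusted p of 0.05 beside 9.56% of all genes.

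Glyphosate and Roundup were compared with the same controls, and Roundup with glyphosate at 10 µg/L. In these 5 comparisons limma called 0 of 50 members and 0 of 9533 genes (0%), 0 members had an unadjusted p under 0.05, and the F-test across the 5 groups called 0 genes, with 1.36% of genes at an unadjusted p under 0.05. The share of all genes with an unadjusted p under 0.05 was 0.997% at 10 µg/L, 1.31% at 1 mg/L and 0.881% at 0.1 g/L of glyphosate, 1.73% for Roundup against control and 1.27% for Roundup against glyphosate. The summed member FPKM was 2203 ± 706 at 10 µg/L, 2456 ± 370 at 1 mg/L and 2072 ± 567 at 0.1 g/L of glyphosate and 2107 ± 928 with Roundup, against 2258 ± 736 in control (SD, n = 5 each). These sums overlapped control.

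The medians of the members and of all genes lay close together in the herbicide comparisons. The median of the members log2 difference was -0.02 at 10 µg/L of glyphosate (all genes -0.04), 0.19 at 1 mg/L (0.14), -0.08 at 0.1 g/L (-0.01) and -0.12 with Roundup (-0.18). Between Roundup and glyphosate at 10 µg/L it was -0.09 (-0.14). HIST1H3C, the member called with PCB 126, gave 107, 89.8, 58.2, 72.7 and 34.1 FPKM with glyphosate at 10 µg/L and 109, 105, 53.5, 45.5 and 37.8 with Roundup, in the range of its controls.

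The smallest p values in the herbicide comparisons belonged to 3 members. HIST1H2BK ranged from 2.22 to 85.0 FPKM with Roundup, the other libraries lying between, and gave 86.3, 67.7, 49.4, 102 and 29.5 FPKM with glyphosate at 10 µg/L. Against control the log2 difference with Roundup was -1.35 (SE 0.67, limma unadjusted p 0.0525, exact permutation p 0.0873), and against glyphosate it was -1.22 (limma unadjusted p 0.078). HIST1H2BN, an H2B gene that varied from 3.04 to 17.7 FPKM among the controls, had the smallest p at 10 µg/L (-0.80, limma unadjusted p 0.108) and at 0.1 g/L of glyphosate (-0.82, 0.0982). At 1 mg/L it was HIST1H4E (-1.13, SE 0.83, limma unadjusted p 0.183), whose 5 libraries lay between 0.846 and 1.34 FPKM.

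The other genes of histone supply were read from lists that were likewise chosen with earlier results known. For reference, limma called 1.22% of all genes tested lower at 1 µM. An unadjusted p under 0.05 (limma) was reached by 11.3% on the lower side and 2.27% on the higher. The median log2 difference of all genes tested was -0.26. Of 16 replication-independent histone genes, 10 were tested at 1 µM. Limma called 0 of them, 5 had an unadjusted p under 0.05 (all lower), and the median was -0.54. Among them H3F3A and H3F3B, which code for the replacement histone H3.3, had log2 differences of -0.26 and 0.21 (limma adjusted p 0.702 and 0.73). Of 28 genes of histone mRNA processing and decay, 20 were tested and 1 was called, with a median of -0.36. The called gene was XRN1, a 5′ to 3′ exoribonuclease, which fell by 1.60 on the log2 scale (limma adjusted p 0.0368). Its libraries ran from 6.42 to 13.7 FPKM in control and from 0.578 to 9.95 at 1 µM, overlapping (means 10.9 ± 2.81 and 4.12 ± 4.21). SLBP itself had 12.7 ± 3.17 FPKM in control and 9.52 ± 2.04 at 1 µM (-0.37, limma adjusted p 0.533). Of 26 histone chaperone genes 22 were tested and limma called 0, with 5 at an unadjusted p under 0.05 and a median of -0.38.

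Genes of the cell cycle stood lower in the mean at 1 µM as well. The shares of all genes tested to set beside the counts are 1.22% called lower and 11.3% lower at an unadjusted p under 0.05 (limma). The median of all genes tested was -0.26. Of 39 S-phase genes 28 were tested and limma called 0, with 12 at an unadjusted p under 0.05, all lower, and a median of -0.63. PCNA, the sliding clamp of DNA replication, had -0.67, and RRM2, a subunit of ribonucleotide reductase, -0.81 (limma adjusted p 0.332 and 0.212). Of 20 mitosis genes 16 were tested and 2 were called, CENPF, a kinetochore protein gene, which fell by 1.14 (limma adjusted p 0.0186), and KIF11, a spindle motor gene, which fell by 1.60 (0.0306). The unadjusted p was under 0.05 in 12 of the 16, all lower, with a median of -0.86. The summed level of the 5 markers of cycling cells, MKI67, TOP2A, CCNB1, CDK1 and BIRC5, was 28.5 to 70.9 FPKM in control and 16.3 to 39.3 at 1 µM, and its part in the level of the members was not tested.

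Other RNAs without a poly(A) tail were read beside the histone mRNAs. Of 15 such genes 13 were tested at 1 µM, limma called 0, none had an unadjusted p under 0.05, and the median was -0.09, RN7SK standing at -0.23 and RN7SL2 at 0.39. The 13 ran from -1.08 to 2.96. The 2 mitochondrial ribosomal RNA genes gave 0 calls and 0 at an unadjusted p under 0.05.

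Markers of the cell types in the cultures also differed at 1 µM. All 10 hepatocyte markers were above 0 in the controls, in which their sum ran from 14483 to 21116 FPKM, and at 1 µM it ran from 5672 to 14251. Of the 10, limma called 4 lower, APOA2, AHSG, TTR and FGB, which code for proteins secreted by hepatocytes, with log2 differences of -3.20, -1.84, -1.62 and -1.37. Among all genes tested 1.22% were called lower. The markers did not all move one way: 8 of the 10 were below 0, with a median of -1.14 and a highest value of 0.41. HNF4A, of the same list, had a higher mean at 1 µM, 27.0 against 19.5 FPKM in control. The 8 biliary and progenitor markers summed to 279 to 535 FPKM in control and 165 to 285 at 1 µM, and the 8 fibroblast and stellate markers to 41 to 91.9 and 50.8 to 190. Of the 6 tested, 3 had a log2 difference below 0, with a median of -0.05. COL3A1, a collagen gene, was called lower (-3.07), while LUM and DCN, which code for matrix proteoglycans, had differences of 1.03 and 1.02 (limma adjusted p 0.18 and 0.0886). No marker was at 0 in all 40 libraries. CYP1A1, a target of the receptor that dioxin-like compounds bind, rose by 6.61 on the log2 scale (2.33 FPKM in control and 235 at 1 µM), and CYP1A2, TIPARP and CYP1B1 also rose. The part of these differences in the level of the histone genes was not tested.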

How the data were processed

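HepaRG cells of 8 groups with 5 libraries each were sequenced, and the labels do not say that replicates are separate cultures, so p-values measure only the spread between these libraries, which may be technical. The authors aligned read pairs to GRCh38 with HISAT2 and assembled and quantified transcripts with StringTie. They deposited FPKM per transcript and library, unfiltered and not pooled. Deposited columns with a value just below 0 were listed as score rather than FPKM, and those values (4 in the PCB 126 table, 6 in the herbicide table) were set to 0. FPKM are not counts, and no interval on counts was given. The study reports the range of reads per sample, but read depth was not set beside the levels here. No column of the 2 tables was left unused.

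FPKM were summed per gene name. The 35782 of 234960 transcripts without a gene name stayed out. Genes with a variance of FPKM above 1 over the libraries of a table were tested with limma (version 3.58.1 in R 4.3.3) on log2(FPKM + 1), all groups of a table in 1 fit, with Benjamini-Hochberg adjustment over 9755 genes (PCB 126) and 9533 genes (herbicides) and a threshold of 0.05. A log2 difference with a pseudocount of 1 understates the change of low genes. Single members were also tested by exact 2-sided permutation over 252 splits, whose smallest p is 0.00794. The fit was tested on simulated data. Members with the 4 highest means in each class, the called members, the member with the smallest p in each comparison, 4 genes named by the study and members at 0 in all libraries were named by rule. From the other lists, called genes and some of the highest were named. The members and lists were chosen with earlier results of these data known. Alternatives were another pseudocount, scalings, filters, transcript choice, libraries left out, a replicate block and a fit of 2 groups. Scaling to the library sum was added after the data had been seen. Stem-loops were searched in the genome with the GENCODE v44 annotation, and promoters were taken from RefSeq.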

Additional observations from a re-analysis of the deposited data

Results flagged for a closer look

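In 256 groups of 5 libraries, covering 26 named members, the 5 class sums and the sum of all members in each of the 8 treatment groups, 10 held a single library far from the other 4 by Dixon's test, where chance alone gives about 12.8 (1 in 20). Of the 10, 4 were the lowest value in PCB 126 100 pM replicate 5: HIST1H2AE at 26.3 FPKM (group median 54.1), HIST1H3H at 20.1 (34.8), HIST2H2AA3 at 72.5 (110.0) and HIST2H2AC at 66.3 (100.0). That library was the lowest of its group in 45 of the 50 tested members. HIST1H3B in 1 µM replicate 5 was low at 40.9 FPKM (51.3). High single libraries were HIST1H4B in 1 µM replicate 1 at 173 FPKM (55.4), HIST1H4E in 100 pM replicate 1 at 20.2 (1.14) and in glyphosate 0.1 g/L replicate 1 at 28.5 (0.856), HIST1H2BD in glyphosate 0.1 g/L replicate 1 at 109 (61.3) and HIST1H2BN in glyphosate 10 µg/L replicate 4 at 12 (4.13).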

How the results depend on the processing

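The number of members called at 1 µM PCB 126 (1 as reported) depended on the setting. It was 0 with a pseudocount of 0.1, with no filter, with the most abundant transcript per gene and with the 2 groups fitted alone. With a mean of at least 1 FPKM as filter it was 2 (HIST1H3C and HIST1H2AG). In that order, 1.65%, 0.398%, 1.49%, 1.55% and 1.59% of all genes tested were called. The member count was 20 with 75th-percentile scaling, 23 with quantile normalization and 28 with scaling to the summed FPKM (added after seeing the data). It was 27 without the libraries over 30% multiple alignment (26 lower, with HIST2H2BF higher). Leaving out single libraries gave 0 to 28 (28 without control replicate 5). The shares of all genes called with single libraries left out are not given. Across the 4 PCB 126 groups (0 as reported) the counts were 19 with 75th-percentile scaling, 19 with quantile normalization, 20 with scaling to the summed FPKM, 4 without the multiply aligned libraries (HIST1H1B, HIST1H1E, HIST1H2AB and HIST1H2AG) and 0 to 14 with single libraries left out (14 without control replicate 5, 5 without 100 pM replicate 5). With these scalings and without the multiply aligned libraries, in that order, 4.95%, 7.32%, 5.58% and 3.31% of all genes tested were called. The member counts at 100 pM, at 10 nM and in the herbicide comparisons were 0 under every alternative run.

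All genes called at 1 µM numbered 182 as reported (1.87% of those tested), 592 with 75th-percentile scaling (6.07%) and 1085 with quantile normalization (11.1%). They numbered 889 with scaling to the summed FPKM (9.11%), 526 without the multiply aligned libraries (6.34%) and 357 with the block (3.66%).

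The replicate block (the 5 runs of library numbers, each with 1 library of every group) called 18 members at 1 µM and 18 across the 4 groups, and changed no other member count. Of all genes tested the block called 3.66% and 2.77%. The labels do not say what a run is. The deviations of libraries of one run correlated at 0.00173 to 0.129 at 1 µM, with 1 of 5 pairs over 0.1 and 5 of 10 libraries correlating best with their own run. Over the 8 comparisons of 2 groups the correlations ran from -0.0498 to 0.36, with 0 to 4 of 5 pairs over 0.1 and 3 to 8 of 10 libraries best with their own run. Since no comparison had every pair over 0.1, the runs were not taken as pairs. The correlations were taken across genes and cannot register a shift shared by all genes of a library. They therefore do not decide whether the runs are pairs. Replicate 5 was lowest of its group in 43 of 50 members in control, 45 at 100 pM, 42 with glyphosate at 10 µg/L and 41 with Roundup (2 to 17 in the other 4 groups).

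HIST1H3C missed the threshold with a pseudocount of 0.1 (adjusted p 0.0741), no filter (0.152), the most abundant transcript (0.0852) and the 2 groups alone (0.0829, limma). The sign at 1 µM turned for HIST1H1C with quantile normalization (0.01), for HIST1H2BC with the most abundant transcript (0.36), for HIST1H4B with 75th-percentile scaling (0.04), quantile normalization (0.05), without control replicate 1 (0.03) and without 1 µM replicate 3 (0.04), and for HIST2H2AA4 without control replicate 2. With single libraries left out HIST1H4B ran from -0.47 (without 1 µM replicate 1) to 0.04 and HIST2H2AA4 from -0.26 to 0.93. Of 609 values of single members under alternatives, 526 kept direction and side of the threshold. The log2 difference of the summed FPKM at 1 µM ran from -0.92 to -0.50. The causes were not tested. FPKM without counts leave the number of reads behind low members unknown.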
